A study of Drosophila melanogaster with 12 samples.

Results

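The libraries described here are the 2 mock RNAi and the 2 Slmb RNAi Hi-C libraries of PnM cells, 4 of the 8 Hi-C libraries of the series. They are all the libraries that the labels give as mock or Slmb RNAi. PnM is 1 clonal line of male diploid *Drosophila* cells with hybrid chromosomes, the maternal and the paternal homologs coming from different inbred strains, and the study describes it as Mef2-expressing and probably mesodermal. Slmb cells received 30 µg of double-stranded RNA against Slmb on days 1 and 3 and were collected on day 4, and mock cells went through the same transfection with water alone. All 4 libraries therefore share the hybrid genotype, the single X and the calcium phosphate transfection. The line also carries an excess of maternal over paternal 3R. The study proposes that some of the cells hold only maternal copies of part of that arm. By its estimate the fraction of such cells was slightly higher in the Slmb than in the mock sample. A mock sample holds no unrelated double-stranded RNA, so an effect of the double-stranded RNA itself and an effect of losing Slmb cannot be told apart. Hi-C does not measure the targeted transcript, and the level of Slmb in these libraries was not analysed here.

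Slmb is the F-box protein that brings substrates to an SCF ubiquitin ligase. Among its known substrates in *Drosophila* is Cap-H2, a subunit of condensin II, a ring complex that folds chromosomes along their length and acts against the pairing of homologs. When Slmb is depleted, Cap-H2 is known to accumulate, chromosomes become more compact and homologs separate in fly cells. Somatic homologs of *Drosophila* are normally paired, and the arms of a chromosome often lie side by side from the centromere outwards, in what is called the Rabl configuration. In Hi-C, a ligated pair of fragments records that they were near each other in the nucleus. Sequence differences between the parental strains assign each fragment to a homolog, so that a pair is *cis* (both sides on the same homolog), *thom* (the same arm of the other homolog), between the arms of 1 chromosome, or *thet* (between chromosomes 2 and 3).

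The mock libraries held 11038225 and 12077016 pairs and the Slmb libraries 11322972 and 10190412, of which 6688455, 7308522, 6851091 and 6179060 lay on 2L, 2R, 3L and 3R. With 2 libraries a group, the smallest two-sided p that an exact permutation test can give is 0.333. Differences of single values are therefore described by whether the libraries overlap and by how far the means differ relative to the SD between replicates (n = 2 in each group). The study calls the replicates of each RNAi treatment biological, and the labels do not say at which step they were separated, so errors and p-values measure only the spread between these libraries. A wider yardstick is the largest gap between the 2 replicates of any of the 4 groups of Hi-C libraries, which besides mock and Slmb are untreated cells and cells with RNAi against TopII, the topoisomerase that untangles DNA and also promotes pairing. That gap was mostly the one between the 2 TopII libraries, which stood further apart than the replicates of the other groups.

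The separation of *cis* contacts shifted towards long distances in Slmb cells. Of the *cis* pairs of 1 kb to 10 Mb on the autosomes, the share at 1-10 Mb was 27.3% and 26.6% in the mock libraries and 32.7% and 31.3% in the Slmb libraries. Both Slmb libraries lay above both mock libraries, and the means differed by 5.07 percentage points, with an SD of the difference of 1.10 and a widest replicate gap of 1.53. The share at 10-100 kb was 32.5% and 32.9% in mock and 29.3% and 30.1% in Slmb cells, lower by 2.99 points on average, again more than the widest replicate gap of 1.77. At 100 kb-1 Mb it was 25.2% in each mock library and 24.1% and 23.8% in the Slmb libraries, a difference of −1.25 points that was smaller than the gap of 1.38 between the TopII libraries. The 1-10 kb share was 14.97% and 15.27% against 13.86% and 14.73%, a difference of −0.83 points that was smaller than the gap of 0.874 between the Slmb libraries themselves. Contacts beyond 10 Mb, which join the most distant parts of an arm, made up 4.43% and 4.31% of all *cis* pairs in mock and 6.06% and 5.78% in Slmb cells.

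**Figure D1:**
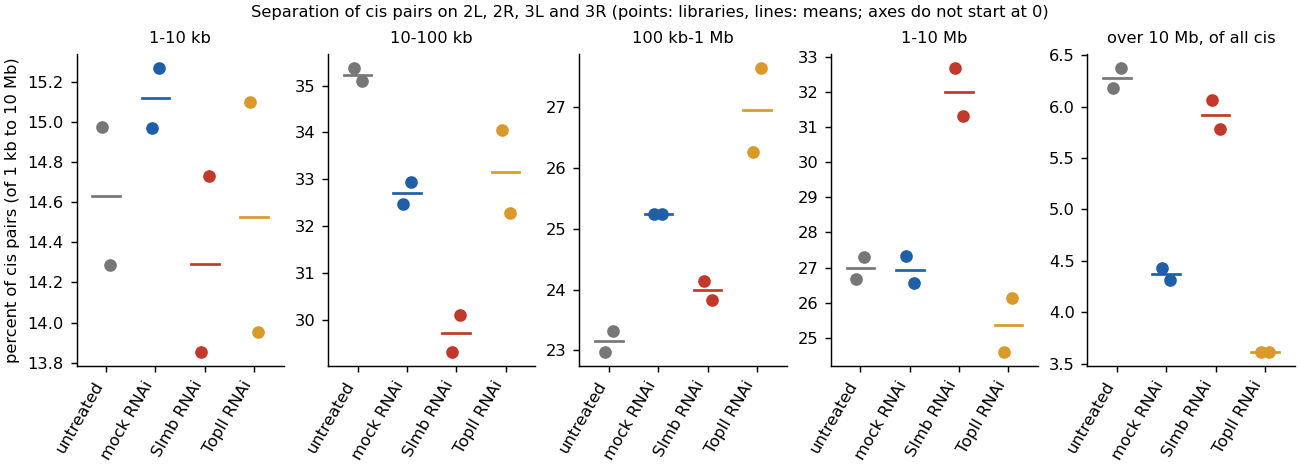
Percent of autosomal *cis* pairs in each range of separation (y axis, in percent; panels are ranges, and the last is a percent of all *cis* pairs), with 1 point for each of the 8 libraries and a line at each group's mean. The Slmb libraries are the highest of the 4 groups at 1-10 Mb (32.7% and 31.3%) and the lowest at 10-100 kb, and beyond 10 Mb they lie between mock and untreated cells.

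The same redistribution appeared on each arm. The rise at 1-10 Mb was 4.43 points on 2L, 5.49 on 2R, 5.14 on 3L and 5.24 on 3R, with no overlap of libraries on any arm. It was also present on the X, of which a male cell has a single copy and which therefore has no homolog to pair with. There the 1-10 Mb share was 37.9% and 37.1% in mock and 43.3% and 41.8% in Slmb cells, a difference of 5.06 points. *Thom* pairs shifted in the same way: their 1-10 Mb share was 29.7% and 28.9% in mock and 35.9% and 34.5% in Slmb cells, and their 10-100 kb share fell from a mean of 32.1% to 28.5%.

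Taken range by range, with 8 ranges for each order of magnitude, *cis* contact frequency was scaled to each library's *cis* pairs of 1 kb to 10 Mb. In Slmb cells it was below that of mock cells without overlap of libraries in 19 of 32 ranges and above it in 10. With this scaling, as with the shares above, a rise in some ranges lowers the others. The falls and rises are therefore not separate results, and the separation at which they meet depends on the scaling. The lowest log2 ratio of Slmb to mock was −0.15 ± 0.02 (SD of the difference), at 75 to 100 kb. The ratio first exceeded 0 in the range that begins at 562 kb, and it reached 0.37 ± 0.05 in the last range, which begins at 7499 kb. On the X the lowest ratio was −0.18 ± 0.02 and the highest 0.27 ± 0.04, and it first exceeded 0 in the range that begins at 750 kb. The contact frequency thus fell off less steeply with distance. The log-log slope at 1-10 Mb was −0.642 and −0.637 in the mock libraries and −0.554 and −0.551 in the Slmb libraries, and at 100 kb-1 Mb it was −1.23 and −1.24 against −1.15 and −1.16. Both slope differences (0.0869 and 0.0795) were over 3 times the widest replicate gap. At 10-100 kb the slope was −0.873 on average in mock and −0.885 in Slmb cells, a difference of −0.012 within the replicate gaps.

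**Figure D2:**
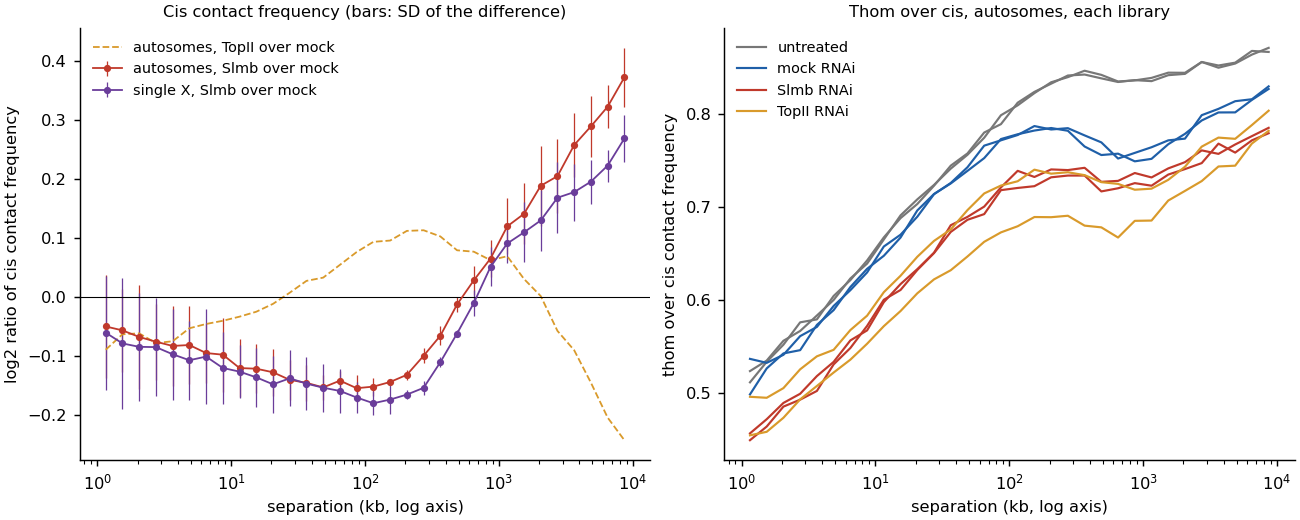
Left, log2 ratio of *cis* contact frequency (y axis) against separation in kb (log x axis) for the autosomes and the single X, Slmb over mock, with bars for the SD of the difference over n = 2 libraries a group, and TopII over mock as a dashed line. Right, *thom* over *cis* contact frequency (y axis) of each library against separation. The Slmb curves rise above 0 in the ranges that begin at 562 kb (autosomes) and 750 kb (X) and reach 0.37 and 0.27, and in the right panel both Slmb lines run below both mock lines over the whole range.

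Untreated and TopII cells place these shifts among the other conditions. The slope at 1-10 Mb was −0.472 on average in untreated cells and −0.749 in TopII cells, so the mean of Slmb cells (−0.553) lay between those of untreated and mock cells (−0.639). Likewise, 6.28% of *cis* pairs lay beyond 10 Mb in untreated and 3.62% in TopII cells. At 10-100 kb, in contrast, untreated cells had 35.2% of *cis* pairs, above mock cells, and Slmb cells lay on the other side of mock. Both knockdowns were set against the same mock libraries, and mock cells themselves differed from untreated cells in these values.

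Along the arms, the shift was spread over nearly every window. For windows of 100 kb, *cis* pairs at 100 kb-10 Mb were divided by *cis* pairs at 1-100 kb, and 917 windows had a mean of at least 50 distant pairs a library. The log2 change from mock to Slmb was positive in 903 of them, with a median of 0.22. By limma with Benjamini-Hochberg adjustment at 0.05, 630 windows (68.7% of those tested) were higher in Slmb cells and 0 were lower. Of the windows called, 133 of 229 tested were on 2L, 160 of 212 on 2R, 157 of 214 on 3L and 180 of 262 on 3R. The number called depended on single libraries while the median did not change sign: 66 windows were called without mock replicate 2 (median 0.20), 277 without mock replicate 1, 346 without Slmb replicate 1 and 708 without Slmb replicate 2. Against the TopII libraries, 31 of 917 windows (3.38%) were higher in Slmb cells, with a median of 0.22. TopII against mock called 0 windows by the same limma test (3 at an unadjusted p under 0.05), and the test against TopII is the only one of these that compares the knockdowns directly.

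The windows named by rule, the 3 called windows with the largest rise and separate libraries, lay at 2L:1-100000, 3R:19600001-19700000 and 3L:400001-500000 (dm3), without gene annotation, since none of that build was used here. The window at the telomeric end of 2L had distant-to-near ratios of 1.25 and 1.29 in mock and 2.10 and 1.98 in Slmb cells, from 540, 582, 823 and 679 distant pairs. Its log2 change of 0.68 ± 0.13 (SE) had a limma adjusted p of 4.28e-06. In the 3R window the ratios were 0.961 and 0.899 in mock and 1.37 and 1.30 in Slmb cells (0.52 ± 0.08 log2, limma adjusted p 8.47e-09), and in the 3L window 0.508 and 0.486 against 0.733 and 0.674 (0.50 ± 0.09 log2, limma adjusted p 3.7e-06). All 3 windows had separate libraries, as the naming rule required. Although 2 of them lay in the first 0.5 Mb from a telomeric end, telomeric windows as a class did not rise more. In the telomeric 2 Mb, 52 of 78 windows were called higher and the median log2 change was 0.21. In the interior of the arms, 558 of 797 were called higher and the median was 0.22.

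The size of the rise followed an eigenvector track of untreated cells, used here as a compartment track without a check against genes. That track is the eigenvector of the untreated *cis* map, oriented so that high values go with high *thom* over *cis*, and it uses none of the 4 libraries compared. In the fifth of windows with the highest eigenvector values, 164 of 179 windows were called higher and the median log2 change was 0.30. In the fifth with the lowest values, 57 of 179 were called and the median was 0.13. The test of this difference is the gap between the 2 classes within each library. The median log2 ratio of the high class minus that of the low class was −0.15 and −0.13 in the mock libraries and 0.04 and 0.01 in the Slmb libraries, a shift of 0.17 with an SD of 0.02 and no overlap (exact permutation p = 0.333, the smallest possible). Splitting each arm into 3 equal classes by untreated *thom* over *cis* gave the same order: the third with the highest values had 243 of 305 windows called and a median of 0.26, the third with the lowest 159 of 307 and 0.18. These splits overlap in their windows and are not separate lines of evidence.

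**Figure D3:**
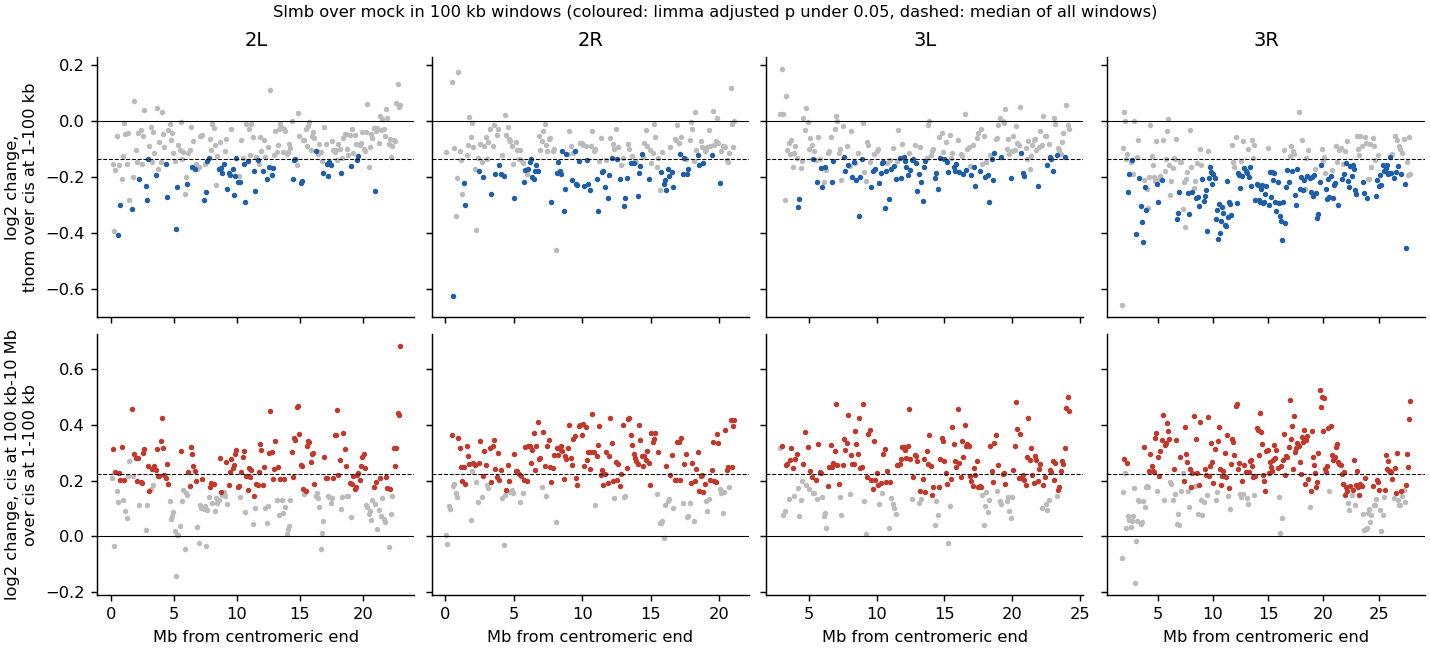
Log2 change from mock to Slmb in 100 kb windows (y axis) against distance from the centromeric end of each arm in Mb (x axis), for *thom* over *cis* at 1-100 kb (top) and for *cis* at 100 kb-10 Mb over *cis* at 1-100 kb (bottom); coloured points are windows with a limma adjusted p under 0.05 and the dashed line is the median of all windows. Nearly all windows lie below 0 in the top row (median −0.14) and above 0 in the bottom row (median 0.22), and the changes are scattered over the whole of each arm.

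Contacts between windows of the high eigenvector class were less enriched in Slmb cells. Compartment strength, the product of the enrichments within the high and within the low class divided by the squared enrichment between them at 1 Mb or more, was 2.17 and 2.15 in mock and 1.91 and 2.03 in Slmb cells. The libraries did not overlap, but the mean difference of −0.187 was no larger than the gap of 0.195 between the 2 TopII libraries. Its parts moved by more than their replicate gaps where the high class was involved. Contacts within the high class were enriched 1.69 and 1.68 times in mock and 1.59 and 1.62 times in Slmb cells, and contacts between the classes rose from a mean of 0.794 to 0.816 of expectation. Contacts within the low class were below expectation and did not fall, at 0.810 on average in mock and 0.816 in Slmb cells. The libraries did not overlap, but the difference was smaller than the gap between the TopII libraries.

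At domain boundaries no change was detectable at this depth. For 10-50 kb *cis* pairs, crossing of the boundaries found in untreated cells was 0.628 and 0.625 of the crossing of points 50 kb to either side in mock, and 0.634 and 0.625 in Slmb cells. The libraries overlapped, and the difference of means was 0.003 ± 0.007 (SD of the difference).

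The shares of the broad pair classes give the chromosome territories. Of pairs counted on the autosomes at 1 kb or more, *cis* pairs made up 49.1% and 49.9% in mock and 50.9% and 51.7% in Slmb cells, higher by 1.81 points. Pairs between the arms of 1 chromosome made up 6.22% and 5.73% in mock and 5.82% and 5.34% in Slmb cells, and *thet* pairs 8.46% and 7.53% against 7.89% and 6.96%. In both of these classes the groups overlapped, so no difference was resolved. The territory ratio, contacts per locus pair between the arms of 1 chromosome over those between chromosomes 2 and 3, was 1.454 and 1.504 in mock and 1.458 and 1.517 in Slmb cells, which likewise overlapped. Within arms the balance differed. Per locus pair, *cis* contacts at 1-10 Mb were 10.5 and 11.6 times as frequent as *thet* contacts in mock and 13.7 and 15.1 times in Slmb cells. The 2 TopII libraries spanned 10.0 to 15.9 for this ratio, so the difference of 3.37 was smaller than their gap.

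The share of contacts between arms was not resolved as different, and their arrangement along the arms was compared next. A Rabl configuration brings together loci at equal distance from the centromere. Blocks of 1 Mb by 1 Mb were therefore classed by offset, the difference between the distances of their 2 bins from the centromeric ends of the assembled arms, and contacts were divided by the product of the marginal shares of the bins. Between 2L and 2R, contacts with an offset under 2 Mb were at 1.24 and 1.26 times expectation in mock and 1.16 and 1.18 times in Slmb cells, a difference of −0.085 that was smaller than the gap of 0.112 between the TopII libraries. With an offset over 15 Mb they were at 0.667 and 0.666 of expectation in mock and at 0.806 and 0.782 in Slmb cells, a difference of 0.127 with a widest replicate gap of 0.117. In plain shares of all 2L with 2R pairs, offsets over 15 Mb held 6.49% in each mock library and 8.08% and 7.95% in the Slmb libraries, and offsets under 2 Mb held 21.2% and 21.5% against 19.7% and 20.0%.

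Chromosome 3 moved in the same direction by less. Between 3L and 3R the contacts with an offset under 2 Mb were at 1.13 and 1.12 in mock and 1.09 in each Slmb library, and those over 15 Mb were at 0.759 and 0.762 against 0.826 and 0.800. The groups did not overlap, but both differences (−0.036 and 0.052) were smaller than the gaps between the TopII libraries (0.047 and 0.098). Whether chromosome 2 and 3 differ in the size of the shift was not tested. In untreated cells the offset classes were flatter still, with 1.09 and 1.08 under 2 Mb and 0.865 and 0.881 over 15 Mb between 2L and 2R, so that Slmb cells lay between mock and untreated cells. These classes were drawn up after the block changes had been seen.

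**Figure D4:**
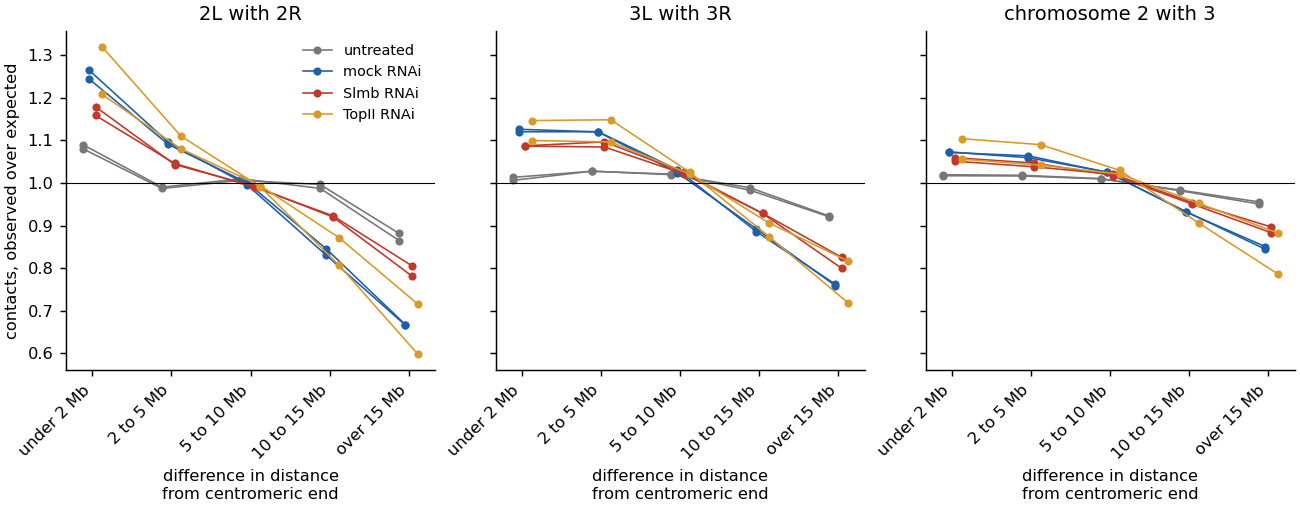
Contacts as observed over expected (y axis) by offset class (x axis, the difference between the 2 bins in distance from the centromeric end) for 2L with 2R, 3L with 3R and chromosome 2 with 3, with 1 line for each library. The Slmb lines are flatter than the mock lines and the untreated lines flatter again, as at offsets over 15 Mb between 2L and 2R, where mock lies at 0.667 and 0.666 and Slmb at 0.806 and 0.782, and the 2 TopII lines lie far apart.

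Tested block by block with limma, 37 of 1099 between-arm blocks (3.37%) were higher in Slmb cells and 16 (1.46%) were lower, with 190 at an unadjusted p under 0.05. With blocks scaled to the library total in place of the marginal shares of their bins, 26 were higher and 37 lower. Of the 53 blocks called with marginal shares, 24 were also called with this scaling. The split of directions and the choice of blocks called thus depend on the scaling. The position of the calls is given here for marginal shares. Without mock replicate 2 the total of 53 called became 24, and without Slmb replicate 1 it became 32. On chromosome 2, 34 blocks were higher and 11 lower. Of the 25 tested blocks with both bins within 5 Mb of the centromeric ends, 8 were called lower and the median log2 change was −0.21. Of the 46 blocks that joined a bin within 2 Mb of the centromeric end to a bin over 10 Mb further out on the other arm, 22 were called higher, 46 had a positive change and the median was 0.36. On chromosome 3 the corresponding counts were 3 called lower of 7 (median −0.40) and 0 called of 13 (median 0.13). The classes by distance from the centromeric ends were not planned in advance, so these counts describe the pattern and do not test it. Blocks of a row share a bin and are not independent. Because the expectation comes from the totals of the bins, a fall in a block with many pairs raises the ratios of the others in its row. The falls and rises are therefore not separate results.

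The blocks named by rule show the 2 sides of this pattern. Between 2L:22000001-23000000 and 2R:1-1000000, the innermost tested megabases of both arms, observed over expected contacts were 9.26 and 9.99 in mock and 5.77 and 6.35 in Slmb cells, from 1398, 1529, 1169 and 1111 pairs (−0.67 ± 0.08 log2 (SE), limma adjusted p 7.62e-15). The next megabase of 2R, 2R:1000001-2000000, had 5.42 and 5.57 with the same 2L bin in mock and 3.56 and 3.86 in Slmb cells (−0.57 ± 0.08 log2, limma adjusted p 3.98e-10). On chromosome 3 the block of 3L:21000001-22000000 with 3R:2000001-3000000 had 1.51 and 1.58 against 1.18 and 0.939 (−0.55 ± 0.16 log2, limma adjusted p 0.0149). All 3 join bins within 5 Mb of the centromeric ends, though those on chromosome 3 are not within 2 Mb. The share of their contacts was lower in both Slmb libraries.

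The blocks with the largest rises joined pericentromeric 2L or 2R to distant parts of the other arm. The block of 2L:6000001-7000000 with 2R:1-1000000 was at 0.495 and 0.466 of expectation in mock and at 0.856 and 0.826 in Slmb cells, from 93, 85, 172 and 141 pairs (0.81 ± 0.14 log2, limma adjusted p 1.28e-06). With 2R:11000001-12000000, the bin 2L:22000001-23000000 was at 0.546 and 0.490 in mock and at 0.834 and 0.821 in Slmb cells (0.68 ± 0.10 log2, limma adjusted p 2.94e-08). With 2R:16000001-17000000 the same bin was at 0.410 and 0.434 against 0.725 and 0.591 (0.63 ± 0.10 log2, limma adjusted p 1.69e-07). Each stayed below the expectation of 1 in all 4 libraries, so in Slmb cells the depletion of these contacts was smaller.

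**Figure D5:**
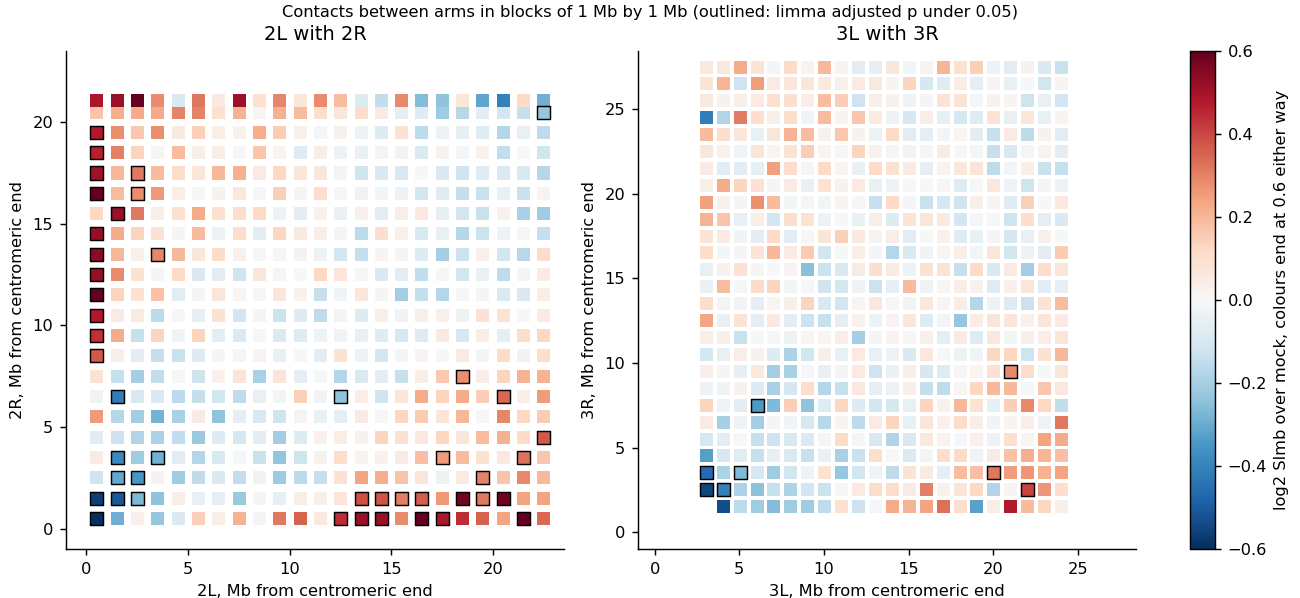
Log2 change in contacts from mock to Slmb in blocks of 1 Mb by 1 Mb (colour) between 2L and 2R (left) and between 3L and 3R (right), with the distance of each bin from its centromeric end in Mb on both axes; outlined blocks have a limma adjusted p under 0.05. Falls gather at the lower left, where both bins are near the centromere, and rises run along both axes of the 2L with 2R map, where 1 bin is near the centromere and the other is far out.

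Between chromosomes 2 and 3 the changes were small and mostly not resolved in single blocks. By limma, 2 of 2192 blocks (0.0912%) were called, with 140 at an unadjusted p under 0.05. The block of 2R:9000001-10000000 with 3R:1000001-2000000 was lower, at 1.46 and 1.31 of expectation in mock and 0.457 and 0.778 in Slmb cells, but from only 39, 35, 12 and 16 pairs (limma adjusted p 0.0443). The block of 2L:3000001-4000000 with 3R:10000001-11000000 was higher, at 0.878 and 0.817 against 1.14 and 1.09 (limma adjusted p 0.0443). Neither call held when mock replicate 1 or mock replicate 2 was left out, where 0 blocks were called (118 and 92 at an unadjusted p under 0.05), and 1 and 5 blocks were called without Slmb replicate 1 and without Slmb replicate 2. By offset, *thet* contacts under 2 Mb were at 1.07 in each mock library and at 1.05 and 1.06 in Slmb cells, and those over 15 Mb at 0.851 and 0.845 against 0.896 and 0.883. Both differences were smaller than the gaps between the TopII libraries (0.048 and 0.096).

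Contacts between the ends of arms of chromosomes 2 and 3 changed by less than the widest replicate gap in every class of ends. Centromeric 2 Mb met telomeric 2 Mb at 0.767 and 0.741 of expectation in mock and at 0.825 and 0.827 in Slmb cells, from between 1484 and 1965 pairs a library. For telomeric ends with each other the values were 1.35 and 1.36 in mock and 1.25 and 1.35 in Slmb cells, where the second Slmb library all but reached the lower mock library. For centromeric ends with each other they were 1.62 and 1.69 against 1.70 and 1.29, from only 58 to 104 pairs a library, and the groups overlapped. The TopII libraries were 0.134 apart for centromeric with telomeric ends, more than the difference of 0.072 between Slmb and mock.

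Which homolog the other arm belonged to mattered slightly more in Slmb cells. Contacts between arms of the same homolog were 1.04 times as frequent as contacts between arms of different homologs in each mock library, and 1.06 and 1.07 times in the Slmb libraries. The difference of 0.025 exceeded the widest replicate gap of 0.007. The ratio was 1.04 in each mock library against 1.06 and 1.08 for 2L with 2R, and 1.04 and 1.05 against 1.06 and 1.05 for 3L with 3R. Only the difference for 2L with 2R (0.036) exceeded its widest replicate gap (0.019). For 3L with 3R the difference was 0.0138 and the gap between the mock libraries 0.0141. Between chromosomes 2 and 3, where no such linkage exists, the ratio of same-parent to other-parent contacts was 1.00 and 1.01 in mock and 1.00 and 0.997 in Slmb cells. In untreated cells the between-arm ratio was 1.01 and 1.02. This ratio was added after other values had been seen.

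Homolog contacts fell relative to *cis* contacts at every separation. *Thom* pairs made up 42.4% and 42.5% of *cis* and *thom* pairs in mock and 41.0% and 41.1% in Slmb cells. The difference of −1.44 points was over 10 times the SD of the difference (0.082) but smaller than the gap of 1.495 between the TopII libraries. *Thom* over *cis* contact frequency was lower in both Slmb libraries than in both mock libraries in all 32 ranges of separation, by between −0.19 log2 in the range that begins at 1 kb and −0.04 log2 in the range that begins at 750 kb. At 10 kb the ratio was 0.648 and 0.658 in mock and 0.6004 and 0.5978 in Slmb cells. At 1 Mb it was 0.752 and 0.765 against 0.723 and 0.732, a difference smaller than the gap of 0.034 between the TopII libraries. The ratio in untreated cells, 0.836 to 0.839 at 1 Mb, was above both, so here the Slmb values lay further from untreated cells than mock did.

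The loss was found along all 4 arms, with medians that differed between arms. At separations of 1-100 kb, 911 windows of 100 kb had at least 50 sides of *thom* pairs a library on average. Of these, 869 had a negative log2 change of *thom* over *cis*, and the median was −0.14. Limma called 368 (40.4%) lower and 0 higher. When only pairs with both sides on the same strand were kept, limma called 0 windows, with 303 at an unadjusted p under 0.05, and the median was again −0.14. Leaving out a library left 113 windows without mock replicate 1, 79 without mock replicate 2, 85 without Slmb replicate 1 and 169 without Slmb replicate 2. Slmb against TopII cells called 0 of 912 windows (29 at an unadjusted p under 0.05), with a median of 0.01.

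By arm, the median change was −0.11 on 2L, −0.12 on 2R, −0.12 on 3L and −0.20 on 3R, and 59 of 228, 77 of 209, 82 of 214 and 150 of 260 windows were called. The *thom* share fell by 0.949 points on 2L, by 1.40 on 2R, by 1.40 on 3L and by 1.98 on 3R. On 3R the ratio of maternal to paternal *cis* pairs, which is raised in these cells, was 2.21 and 2.19 in mock and 2.28 and 2.26 in Slmb cells, while on the other arms it lay between 0.990 and 1.04 in all 4 libraries. The part of this imbalance in the 3R value was not tested. Without 3R the *thom* share differed by −1.24 points.

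Regions also differed by their place on the arm. The 78 tested windows in the telomeric 2 Mb had a median change of −0.09, with 17 called, against −0.14 and 345 called of 795 in the interior of the arms. Within each library, the interior median minus the telomeric median was −0.06 in each mock library and −0.11 and −0.12 in the Slmb libraries, a shift of −0.06 with an SD of 0.003 and no overlap (exact permutation p = 0.333). Among the 38 tested windows in the centromeric 2 Mb, 6 were called and the median was −0.13. By eigenvector, the fifth with the highest values had a median of −0.13 (64 of 179 called) and the fifth with the lowest values −0.18 (85 of 179 called). The gap between these classes was 0.43 and 0.42 in mock and 0.43 and 0.47 in Slmb cells, a shift of 0.03 that was about the size of its SD.

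After the median of each library was subtracted, only 2 of 911 windows (0.22%) differed from the general loss by limma, both lower and both on 3R, with 113 at an unadjusted p under 0.05. The whole of 3R stayed low after this step, with a median of −0.07 and 204 of 260 windows negative. The medians were 0.023 on 2L, 0.006 on 2R and 0.007 on 3L. Whether the 2 windows differ from the rest of 3R was not tested. At 3R:27400001-27500000, close to the telomere, *thom* over *cis* was 0.531 and 0.512 in mock and 0.378 and 0.384 in Slmb cells, and the centred change was −0.32 ± 0.08 log2 (SE, limma adjusted p 0.0327). At 3R:10600001-10700000 it was 0.460 and 0.469 in mock and 0.344 and 0.359 in Slmb cells, and the centred change was −0.27 ± 0.06 log2 (SE, limma adjusted p 0.00502). The sides of *thom* pairs behind these ratios numbered 990, 1161, 766 and 745 for the first window and 2226, 2669, 1641 and 1589 for the second. Neither call remained when any of the 4 libraries was left out, where 0 windows passed, although the centred change of both windows stayed negative under each alternative in which the same window was tested.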

How the data were processed

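In situ Hi-C used 1% formaldehyde for 10 min, DpnII and 150 bp paired reads. The authors aligned reads with BWA 0.7.15 to a hybrid dm3 genome of both haplotypes, removed duplicates and deposited lists of pairs that give where each side maps, its strand and the aligner's mapping quality score, with no normalization. All counts were made here from those pairs; no filter on the score was applied. Values were contact counts per library at separations of at least 1 kb; window and block ratios had a pseudocount of 0.5, with mean counts of at least 50 for windows and 20 for blocks. Windows and blocks were compared with limma 3.58.1 in R 4.3.3 (eBayes with a trend on log2 mean count, Benjamini-Hochberg adjustment at 0.05), fitted only to the libraries of the groups compared. No count model was fitted to the counts made from the pairs. The fit was tested on simulated windows with known changes. Each pair is counted in the windows of both its sides, so neighbouring windows share pairs. A pair with both sides in the same window is counted there once for each side. Eigenvectors (100 kb bins, balanced maps) and boundaries (10 kb bins, prominence over 0.3) came from untreated libraries.

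Replicates were not copies of a library: *thet* shares had 95% Wilson intervals (counting error only) of 8.433% to 8.483% and 7.511% to 7.556% in the mock libraries and of 7.865% to 7.912% and 6.933% to 6.98% in the Slmb libraries. The chi-square per degree of freedom between replicates, however, was 1.05 in mock and 1.1 in Slmb cells. These values are little above what counting error alone gives. Named windows were those called with separate libraries and the largest changes: 5 for each direction of centred *thom* over *cis* and 3 for each direction of the other maps. Alternatives were mapping quality of at least 20, pair orientation, separation, arms, window, block and end size, pseudocount, filter, scaling, replicate block and leaving out each library. The libraries, measures and lists were chosen with earlier results of these data known. RNA-seq was not used here. Counting and plotting used matplotlib 3.10.9, pandas 2.3.3, scipy 1.17.1 and numpy 2.4.6 under Python 3.11.15.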

Additional observations from a re-analysis of the deposited data

How the results depend on the processing

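Depth limits the precision: values per 100 kb window and 1 Mb block rest on few pairs, and leaving out a library leaves 1 sample in a group, which limma then assumes to vary like the other group. The labels do not say that replicate numbers pair the libraries, and over windows and blocks the replicate differences of mock and Slmb had correlations between −0.0395 and 0.0373. The class shares, however, moved together by number: Slmb minus mock was −0.570 and −0.577 points for *thet* pairs and −0.404 and −0.394 points for between-arm pairs at numbers 1 and 2, a hint from the data and not from the design. With a replicate block, limma called 337 windows for *thom* over *cis*, 2 for the centred ratio, 749 for distant over near *cis*, 3 *thet* blocks and 48 between-arm blocks. No difference with separate libraries reversed under the alternatives run. In 4 cases with a library left out, a measure whose libraries overlapped changed sign (territory ratio in 2, boundary crossing, and centromeric with centromeric ends). Of 174 alternative values of the 22 single measures, 166 moved by less than the spread between replicates. The others were as follows. The *cis* slope difference at 1-10 Mb was 0.0912 for pairs on the same strand and 0.0909 for the paternal homolog alone. Without 3R the difference in *thom* share was −1.24 points and that in same over other homolog 0.0362. With all *cis* pairs as denominator the 100 kb-1 Mb share differed by −1.57 points. With ends of 1 Mb, telomeric with telomeric contacts differed by −0.126 and centromeric with telomeric contacts by 0.03004. With wider outer classes of bins the compartment strength differed by −0.0959. The cause was not tested.

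Calls of *thom* over *cis* windows numbered 0 for same-strand pairs, 192 without 3R, 168 without the trend, 62 at 1-10 kb, 62 at 100 kb-1 Mb and 79 to 169 with a library left out. For the centred ratio they numbered 6 in 200 kb windows, 1 without a filter, and 0 with mapping quality of at least 20, same-strand pairs, no 3R, 50 kb windows, no trend, either other separation or any library left out (0 to 0). Distant over near *cis* called 1028 of 1815 windows of 50 kb and 353 of 461 windows of 200 kb, as their number changed, and 66 to 708 with a library left out. *Thet* blocks called numbered 0 with mapping quality of at least 20, with a pseudocount of 5 and without the trend, 1 with scaling to the library total, and 0 to 5 with a library left out. Between-arm blocks numbered 24 to 42 with a library left out.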

Other observations

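The 2 TopII libraries differed from each other by more than the replicates of the other groups in most of the values given above. Their *thet* share was 8.44% and 5.77%, against 8.46% and 7.53% in mock and 7.89% and 6.96% in Slmb cells, and their territory ratio was 1.33 and 1.63. Their ratio of maternal to paternal *cis* pairs on 3R was 2.23 and 2.01, against 1.98 and 1.99 in untreated cells.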
